A study of Mus musculus with 2 samples.

Results

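Trem2 and Tyrobp were followed in 2 single-cell RNA libraries of mouse retina, as 2 of the 17683 genes listed in either library. Both genes were listed in both libraries and were found by symbol. They were described across cell classes set by marker UMIs (unique molecular identifiers, each a count of 1 captured transcript), across microglial states and between the libraries. The Igfbpl1 library came from mice treated with Igfbpl1, a secreted protein named for its likeness to the insulin-like growth factor binding proteins, and the PBS library from mice given PBS. All mice were of the B6 genotype, 8 to 10 months old, with glaucoma induced by microbeads. Each library pooled 10 mice, so no library stands for a single animal, and neither was from eyes without glaucoma. Retinal cells stained for CD45, the leukocyte surface protein, were sorted and prepared with a 10x 3' kit.

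TREM2 is a cell-surface receptor of macrophages and microglia that binds lipids, lipoproteins and cell debris. It has no signalling motif of its own and passes its signal through TYROBP, also called DAP12, an adaptor whose ITAM motif recruits the kinase SYK. TYROBP also carries the signal of many other receptors of myeloid and natural killer (NK) cells, and loss of either gene causes Nasu-Hakola disease in people. In microglia the pair is known for its part in phagocytosis, survival and the switch to the disease-associated state.

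In the mouse genome build mm10, with GENCODE M21 gene models, Trem2 (ENSMUSG00000023992) lies on the plus strand of chromosome 17, from 48346401 to 48354147. It spans 7747 bases with 4 transcripts, 2 of them coding, and up to 5 exons. Its neighbours there are the other TREM genes, with Treml1 5768 bases downstream. Tyrobp (ENSMUSG00000030579) lies on the plus strand of chromosome 7, from 30413760 to 30417585, and spans 3826 bases with 3 transcripts, 2 of them coding, and up to 6 exons. Hcst, which encodes the sister adaptor DAP10, lies on the opposite strand with its 3' end 126 bases past that of Tyrobp. Strand was not stated for the counting, and reads of such convergent 3' ends are the ones a 3' kit samples.

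The promoter of Trem2 is shown because Trem2, more than Tyrobp, was restricted to a few of the classes described below. The RefSeq sequence for build GRCm38.p6, chr17:48346151-48346450 on the plus strand, runs from 250 bases before to 50 bases after the start of the gene, and capitals mark matches to 3 motifs searched on both strands.
Trem2 promoter: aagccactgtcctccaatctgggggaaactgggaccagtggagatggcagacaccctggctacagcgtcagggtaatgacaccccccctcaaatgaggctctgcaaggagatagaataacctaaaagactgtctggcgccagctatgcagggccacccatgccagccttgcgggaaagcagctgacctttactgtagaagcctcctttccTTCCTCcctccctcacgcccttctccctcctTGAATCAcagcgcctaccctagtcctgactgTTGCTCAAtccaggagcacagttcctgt
The first match, TTCCTC, is GAGGAA on the minus strand, a core motif bound by the macrophage factor PU.1, and 28.3% of 32851 RefSeq promoters of this length hold one. The second, TGAATCA, matches TGANTCA, a loose form of the AP-1 motif with any base in the middle, held by 7.81% of promoters. The last, TTGCTCAA, matches the C/EBP motif TTGCNNAA, held by 10.8% of promoters, and begins 22 bases after the start of the gene. The matches do not overlap each other, and the motifs were chosen after the sequence was seen. A match describes letters in the window and is not evidence of binding.

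In the Igfbpl1 library 3330 cells shared 9463631 UMIs, with a median of 2355.5 a cell. In the PBS library 1055 cells shared 3795008 UMIs, with a median of 3433 a cell. The libraries shared 0 cell barcodes. Scrublet marked 62 cells (1.86%) of the Igfbpl1 library and 6 cells (0.569%) of the PBS library as doublets, which were kept. With 1 library a group, no difference between the libraries has a replicate check and none was tested. All intervals below are exact 95% intervals that cover counting error only, and treatment, pool and library preparation cannot be told apart.

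Trem2 had 8864 UMIs in the Igfbpl1 library, in 2034 cells, and 7024 UMIs in the PBS library, in 831 cells. Tyrobp had 21824 UMIs in 2836 cells of the Igfbpl1 library and 7646 UMIs in 852 cells of the PBS library. The gap between the genes thus differed: Tyrobp was found in far more cells than Trem2 in the Igfbpl1 library, and in nearly as many in the PBS library. Cells were sorted into classes by their marker UMIs, and a class is called "-like" for that reason. Microglia-like cells numbered 1589 in the Igfbpl1 library and 776 in the PBS library. Of the remaining cells, 151 in the Igfbpl1 library and 9 in the PBS library carried markers of more than 1 lineage, and 57 cells of the Igfbpl1 library and 4 of the PBS library had too few markers. Those cells entered no class.

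Trem2 was mainly a gene of microglia-like cells. In CPM, the UMIs of a gene scaled to the total of its class, Trem2 stood at 1995 in microglia-like cells of the Igfbpl1 library (interval 1949 to 2041) and at 2382 in those of the PBS library (2326 to 2440). The next class was myeloid cells with MHC class II at 1% or more of their UMIs and Apoe, a lipid carrier, also at 1% or more. These MHC class II Apoe-high cells had 698 CPM of Trem2 in the Igfbpl1 library (645 to 754, 237 cells) and 647 CPM in the PBS library (545 to 762, 50 cells). Their Trem2 was 0.350 times the microglia-like level in the Igfbpl1 library (0.322 to 0.379) and 0.271 times in the PBS library (0.228 to 0.321). Monocyte-like cells of the Igfbpl1 library followed with 450 CPM (344 to 580, 43 cells), and MHC class II Apoe-low cells with 130 CPM (111 to 151, 325 cells). The intervals of these 4 levels in the Igfbpl1 library did not overlap, so their order held beyond counting error. Without the cells marked as doublets, the MHC class II Apoe-low level was 87.3 CPM. After thinning it was 76.9 CPM, below the 143 CPM of dendritic cell-like and 132 CPM of plasmacytoid dendritic cell-like cells, so the place of that class did not hold.

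In the other classes of the Igfbpl1 library with at least 20 cells, Trem2 lay between 15.1 CPM in Müller glia or astrocyte-like cells and 94.2 CPM in B cell-like cells. NK cell-like cells had 42.5 CPM, plasmacytoid dendritic cell-like cells 68.4 CPM, and dendritic cell-like cells 91.8 CPM. Many of these intervals overlapped that of retinal neurons and glia, which should hold no Trem2 transcripts of their own. In those retinal cells pooled, Trem2 stood at 28.6 CPM in the Igfbpl1 library (14.3 to 51.2, 173 cells) and at 26.3 CPM in the PBS library (10.6 to 54.1, 83 cells). Dendritic cell-like (67.2 to 123) and MHC class II Apoe-low cells had intervals wholly above the retinal one, and NK cell-like (23.2 to 71.2) and migratory dendritic cell-like cells (17.2 to 71.5) did not.

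Tyrobp was spread over many more classes. It stood at 2889 CPM in microglia-like cells of the Igfbpl1 library (2835 to 2945) and at 2379 CPM in those of the PBS library (2322 to 2436). Among classes of at least 20 cells the highest was plasmacytoid dendritic cell-like cells of the Igfbpl1 library, with 4564 CPM (4294 to 4846, 68 cells), 1.58 times the microglia-like level (1.48 to 1.68). The 4 neutrophil-like cells of that library stood at 6655 CPM (4636 to 9256). Monocyte-like cells had 3242 CPM (2943 to 3562), 1.12 times the microglia-like level (1.02 to 1.24). NK cell-like cells had 2827 CPM (2648 to 3014, 149 cells) and MHC class II Apoe-high cells 2784 CPM (2677 to 2894). Neither differed from microglia-like cells of the Igfbpl1 library beyond counting error. MHC class II Apoe-low cells had 2447 CPM (2363 to 2534), dendritic cell-like cells 1535 CPM (1429 to 1648, 98 cells) and migratory dendritic cell-like cells 958 CPM (838 to 1091, 100 cells). These last 3 levels fell in that order with no overlap of their intervals. In the PBS library MHC class II Apoe-high cells had 2081 CPM of Tyrobp (1895 to 2281, 50 cells). That was 0.875 times the microglia-like level there (0.794 to 0.962), lower beyond counting error.

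Retinal neurons and glia together had 49.4 CPM of Tyrobp in the Igfbpl1 library (29.8 to 77.2, from 19 UMIs) and 11.3 CPM in the PBS library (2.32 to 32.9, from 3 UMIs). Bipolar cell-like cells of the PBS library held 0 Tyrobp UMIs in 25 cells, which allows a level of up to 29.9 CPM. γδ T cell-like cells, with 63.6 CPM (23.3 to 138, 35 cells), did not stand apart from the retinal cells. CD45 (Ptprc) transcripts stood at 718 CPM in microglia-like cells of the Igfbpl1 library and 583 CPM in those of the PBS library. In retinal neurons and glia, which a CD45 sort should leave out, they stood at 15.6 CPM in the Igfbpl1 library and 3.75 CPM in the PBS library.

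**Figure D1:**
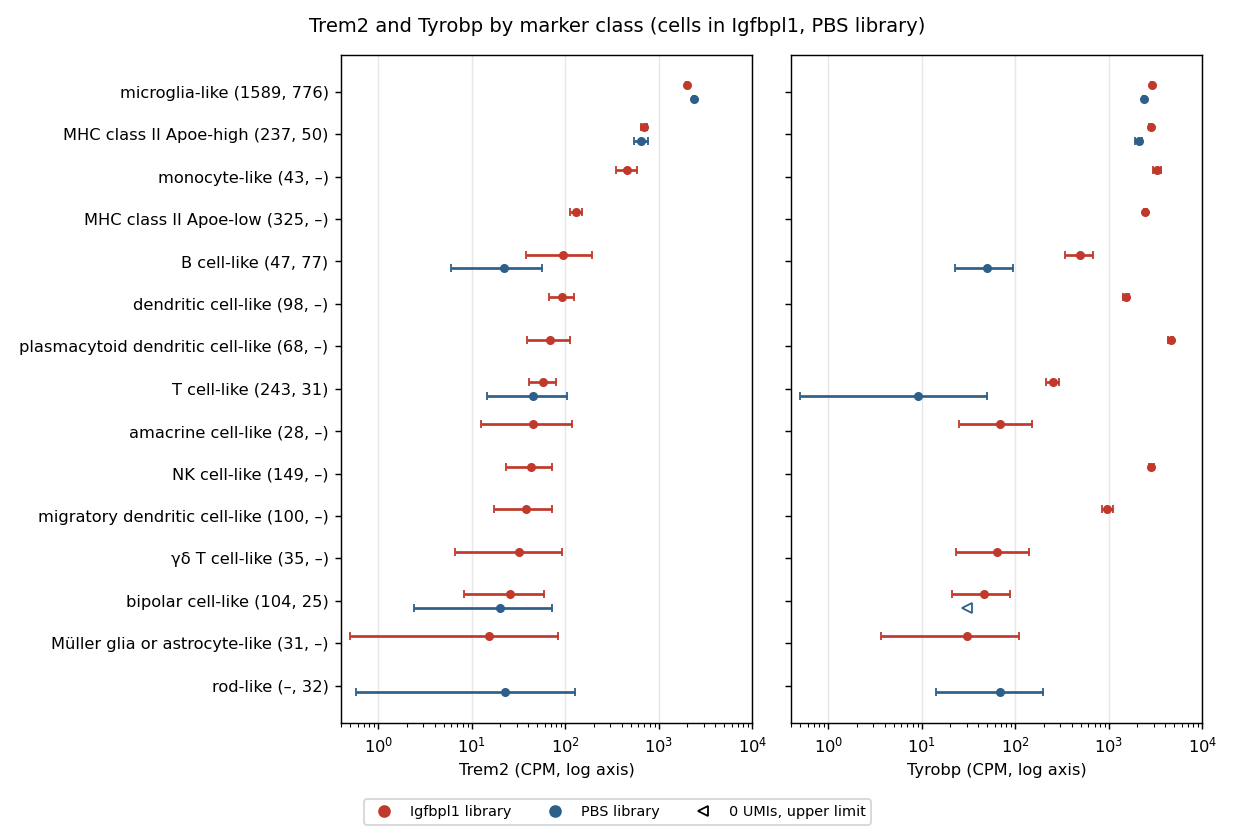
Trem2 (left panel) and Tyrobp (right panel) in CPM on a log axis, for each marker class with at least 20 cells in a library, with exact Poisson 95% intervals. Igfbpl1 library points are red and lie above the blue PBS points, an open triangle marks the upper limit where 0 UMIs were counted, and Tyrobp is near 2889 CPM in microglia-like and 2827 CPM in NK cell-like cells of the Igfbpl1 library, where Trem2 is at 1995 and 42.5 CPM.

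Shares of cells with a UMI gave the same picture. To compare cells of unequal depth, each cell was thinned to 1000 UMIs, which left out 0 cells. After thinning, 83.9% of microglia-like cells of the Igfbpl1 library and 88.5% of those of the PBS library held a Trem2 UMI, at median depths of 2053 UMIs (Igfbpl1) and 3530 UMIs (PBS). Without thinning the shares were 96.5% (Igfbpl1) and 98.6% (PBS). In the Igfbpl1 library the thinned share was 48.5% in MHC class II Apoe-high cells, 25.6% in monocyte-like cells, 7.08% in MHC class II Apoe-low cells and 4.03% in NK cell-like cells (unthinned 80.2%, 39.5%, 22.5% and 8.72%). Bipolar cell-like cells, in which Trem2 should be absent, gave 2.88% thinned and 3.85% unthinned, at a median depth of 1728 UMIs. For Tyrobp the thinned share was 92.0% in microglia-like, 98.5% in plasmacytoid dendritic cell-like and 89.9% in NK cell-like cells of the Igfbpl1 library (unthinned 98.7%, 100% and 96.6%), against 3.85% in bipolar cell-like cells (unthinned 6.73%). A share near the bipolar one is read as background.

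The number of Tyrobp UMIs per Trem2 UMI differed widely among the classes that carry Tyrobp. Both genes are counted as 3' tags, not per length, so this ratio compares classes and does not give the relative number of the 2 transcripts. In the Igfbpl1 library it was 1.45 in microglia-like cells, 3.99 in MHC class II Apoe-high cells (3.66 to 4.36), 7.20 in monocyte-like cells (5.49 to 9.60) and 18.9 in MHC class II Apoe-low cells (16.2 to 22.2). It was 33.1 in that last class after thinning and 28.2 without doublets. It was 66.6 in NK cell-like cells, and 66.8 in plasmacytoid dendritic cell-like cells, from 14 and 16 Trem2 UMIs. In plasmacytoid dendritic cell-like cells it was 40.6 after thinning, with Trem2 at 132 CPM, and 116 without doublets, with Trem2 at 39.3 CPM. In both of these classes Tyrobp was thus close to or above the microglia-like level with little Trem2.

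Among myeloid cells of the Igfbpl1 library other than microglia-like ones, Trem2 was higher the more Apoe the cells held, while Tyrobp differed less. The cells of the MHC class II, monocyte-like, dendritic cell-like and border macrophage-like classes were binned by their Apoe UMIs per 1000, bins chosen after the class levels were seen. The bins mix classes, and their edge at 10 per 1000 is the 1% Apoe cut of the MHC class II classes. In the Igfbpl1 library Trem2 stood at 72.8 CPM below 1 Apoe UMI per 1000 (59.9 to 87.6, 372 cells), 176 CPM from 1 to 3 (106 to 274, 30 cells) and 388 CPM from 3 to 10 (309 to 480, 50 cells). It then stood at 550 CPM from 10 to 30 (486 to 619, 113 cells) and at 885 CPM from 30 upwards (805 to 972, 140 cells). Tyrobp stood at 2127, 2559, 2918, 2777 and 2812 CPM in the same 5 bins. The Trem2 levels were thus in the order of the Apoe bins throughout, with every interval clear of the next. In the PBS library the top bin alone held enough cells, with 647 CPM of Trem2 (546 to 760, 51 cells). That bin held more Apoe than the top bin of the Igfbpl1 library, 81586 against 57489 CPM, and less Trem2. C1qa, a complement gene of microglia and macrophages, moved with Trem2, from 338 CPM in the lowest Apoe bin of the Igfbpl1 library to 3235 CPM in the highest. Monocyte-like cells split likewise: the 11 with Apoe at 1% or more of their UMIs had 901 CPM of Trem2 (649 to 1218), and the other 32 had 208 CPM (123 to 328). Tyrobp stood at 3432 and 3139 CPM in those 2 sets. The 11 monocyte-like cells of the PBS library, all with Apoe below 1%, had 2 Trem2 UMIs (41.4 CPM, 5.02 to 150) and 3707 CPM of Tyrobp.

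Within microglia-like cells, Trem2 was lower and Tyrobp higher in the Igfbpl1 library than in the PBS library. The Igfbpl1 over PBS ratio of CPM was 0.837 for Trem2 (0.810 to 0.865) and 1.21 for Tyrobp (1.18 to 1.25). The libraries filled the class from different clusters: clusters 1, 2 and 4 of a joint Leiden clustering held 673, 419 and 459 of its cells in the Igfbpl1 library, and 57, 84 and 623 in the PBS library. Within clusters the Trem2 ratio was 0.918 in cluster 1 (0.833 to 1.01), 0.788 in cluster 2 (0.729 to 0.853), 0.959 in cluster 4 (0.910 to 1.01) and 1.09 in the small cluster 10 (0.787 to 1.53). The lower Trem2 was thus beyond counting error in cluster 2 alone of these. The Tyrobp ratio was 1.15, 1.32 and 1.17 in clusters 1, 2 and 4, each with its interval above 1, and 1.10 in cluster 10 (0.873 to 1.38). Over all microglia-like cells neither gene passed the 1.5-fold taken as a change, which 3.6% of 3334 measured genes passed upwards and 4.89% downwards. Both lay inside the spread of genes: 33.3% of these genes had a ratio at or below that of Trem2, and 13.8% one at or above that of Tyrobp. The median log2 ratio over those genes was -0.11, and against the median the ratios were 0.912 for Trem2 and 1.32 for Tyrobp. Genes spanning under 10000 bases, as both do, had a median log2 ratio of 0.10, and longer genes one of -0.16.

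The genes differed in opposite directions, so their balance differed too. There were 1.45 Tyrobp UMIs per Trem2 UMI in microglia-like cells of the Igfbpl1 library (1.41 to 1.49) and 0.998 in those of the PBS library (0.965 to 1.03). The quotient of these ratios, which no scaling of the libraries can move, was 1.45 (1.39 to 1.52). Within clusters the quotient was 1.25 in cluster 1 (1.09 to 1.43), 1.68 in cluster 2 (1.51 to 1.87) and 1.23 in cluster 4 (1.14 to 1.32). In the small cluster 10 it was 1.00 (0.667 to 1.51), with no difference beyond counting error. Fcer1g, the Fc receptor gamma chain and another ITAM adaptor, kept step with Tyrobp, at 1.44 UMIs per Trem2 UMI in the Igfbpl1 library (1.40 to 1.49) and 0.977 in the PBS library (0.944 to 1.01). In MHC class II Apoe-high cells the Tyrobp level was 2784 CPM in the Igfbpl1 library and 2081 CPM in the PBS library, a ratio of 1.34 (1.21 to 1.48). Trem2 did not differ between the libraries in that class beyond counting error (ratio 1.08, 0.898 to 1.30).

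Tyrobp in retinal cells, and markers of other classes in microglia-like cells, differed in level between the libraries as well. Tyrobp in retinal neurons and glia stood at 49.4 CPM (Igfbpl1) and 11.3 CPM (PBS), as given above. The difference in microglia-like cells was 511 CPM. In microglia-like cells the summed level of 4 MHC class II markers, all detected, was 624 CPM in the Igfbpl1 library and 186 CPM in the PBS library. Of 7 NK cell markers, 6 were detected in the Igfbpl1 library with a sum of 16.3 CPM, and 1 in the PBS library with 0.700 CPM. Of 8 monocyte markers, 7 summed to 41.7 CPM in the Igfbpl1 library and 6 to 7.00 CPM in the PBS library. T cell markers, of which Cd3e was at 0 in the Igfbpl1 library, summed to 13.8 CPM there and to 1.05 CPM in the PBS library. Other sets were higher in the PBS library: dendritic cell markers summed to 143 CPM (Igfbpl1) and 167 CPM (PBS), and migratory dendritic cell markers to 79.4 CPM (Igfbpl1) and 129 CPM (PBS). Of 8 dendritic cell markers, 8 were detected in the Igfbpl1 library and 5 in the PBS library, where Xcr1, Cd209a and Clec10a were at 0. Of 8 migratory dendritic cell markers, 6 were detected in the Igfbpl1 library and only 2 in the PBS library, where Ccr7, Ccl22 and Ccl17 were at 0. Plasmacytoid dendritic cell markers summed to 325 CPM (Igfbpl1) and 340 CPM (PBS), B cell markers to 76.9 CPM (Igfbpl1) and 97.6 CPM (PBS), and border macrophage markers to 47.4 CPM (Igfbpl1) and 77.0 CPM (PBS). Müller glia or astrocyte markers summed to 419 CPM (Igfbpl1) and 536 CPM (PBS), and rod markers to 52.3 CPM (Igfbpl1) and 73.1 CPM (PBS). Neutrophil markers summed to 220 CPM (Igfbpl1) and 232 CPM (PBS), while ganglion cell markers summed to 94.3 CPM (Igfbpl1) and 86.4 CPM (PBS). In each library only 2 of 6 neutrophil and 2 of 6 ganglion cell markers were detected, so these sums rest on few genes. Cells with MHC class II at 1% or more had left this class by its rule, as had cells with a rival lineage, which limits these sums. Whether these UMIs came from other cells was not tested, nor was their part in the result.

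Cell by cell, most microglia-like cells held both transcripts. After thinning to 1000 UMIs, cells averaged 2.14 Trem2 UMIs in the Igfbpl1 library and 2.44 in the PBS library. Tyrobp averaged 3.03 UMIs a cell in the Igfbpl1 library and 2.38 in the PBS library. The variance over cells was 1.30 times the mean for Trem2 in the Igfbpl1 library and 1.28 times in the PBS library, and for Tyrobp 1.55 times (Igfbpl1) and 1.42 times (PBS), against 1 for sampling alone. Cells thus varied somewhat more than sampling gives, and the counting intervals are narrower than the spread between cells would make them.

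The cells without Trem2 were a few more than sampling gives. Trem2 was at 0 in 16.1% of thinned cells of the Igfbpl1 library, where a Poisson draw at the mean gives 11.8%, and in 11.5% of the PBS library, where it gives 8.69%. Tyrobp was at 0 in 7.99% of cells of the Igfbpl1 library, against 4.85% from Poisson, and in 14.4% of the PBS library, against 9.25%. Both were found in 77.5% of cells of the Igfbpl1 library and 76.8% of the PBS library, and unrelated genes of the same shares would give 77.2% (Igfbpl1) and 75.8% (PBS). Tyrobp alone was found in 14.5% of cells of the Igfbpl1 library and 8.76% of the PBS library, and Trem2 alone in 6.42% (Igfbpl1) and 11.7% (PBS). Pearson's r between the thinned counts over cells was 0.16 in the Igfbpl1 library and 0.14 in the PBS library, which in sparse counts of 1 library is no finding. At full depth, 55 of 1589 microglia-like cells of the Igfbpl1 library had no Trem2 UMI and 21 had no Tyrobp UMI, against 11 and 16 of 776 in the PBS library.

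**Figure D2:**
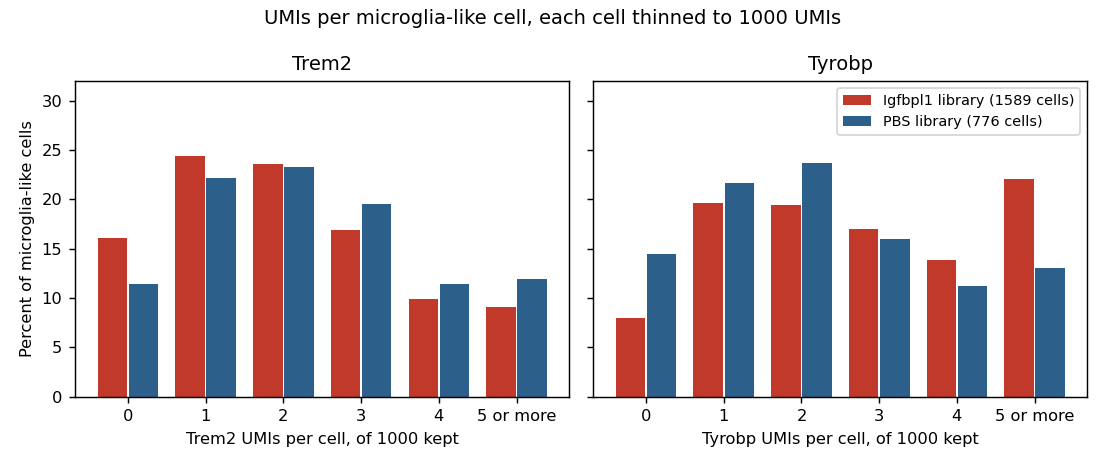
Percent of microglia-like cells with 0, 1, 2, 3, 4 or at least 5 UMIs of Trem2 (left) and Tyrobp (right) after each cell was thinned to 1000 UMIs, red bars for the Igfbpl1 library (1589 cells) and blue for the PBS library (776 cells). For Trem2 the cells at 0 are 16.1% in the Igfbpl1 library and 11.5% in the PBS library, and for Tyrobp 7.99% (Igfbpl1) and 14.4% (PBS).

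Both the levels and the balance of the genes differed with cell depth. Cells of the Igfbpl1 library were shallower, so microglia-like cells were split by total UMIs. In cells of 2000 to 3000 UMIs, Trem2 stood at 1944 CPM in the Igfbpl1 library (527 cells) and 2814 CPM in the PBS library (188 cells), a ratio of 0.691 (0.646 to 0.739). The ratio was 0.706 at 3000 to 4000 UMIs and 0.703 from 4000 UMIs up, but 0.865 at 1500 to 2000 (0.737 to 1.02) and 0.993 at 1000 to 1500 (0.789 to 1.27), where the PBS library had 34 and 24 cells. At equal depth Trem2 was thus lower in the Igfbpl1 library by more than the pooled 0.837 wherever the PBS library had over 100 cells. The Tyrobp ratio was 1.61 in the shallowest bin (1.25 to 2.10) and 1.22 and 1.21 in the next ones. It was 1.03 at 3000 to 4000 UMIs (0.967 to 1.10) and 1.16 in the deepest bin (1.09 to 1.23). Like the Trem2 ratio, it was highest in the shallowest bin. Tyrobp per Trem2 was 1.33 in the shallowest bin of the Igfbpl1 library and 1.76 in the deepest, and 0.821 and 1.07 in those of the PBS library. The bins of the 2 libraries did not overlap in it, and the quotient of the libraries lay between 1.41 and 1.75 in every bin, with every interval above 1.

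**Figure D3:**
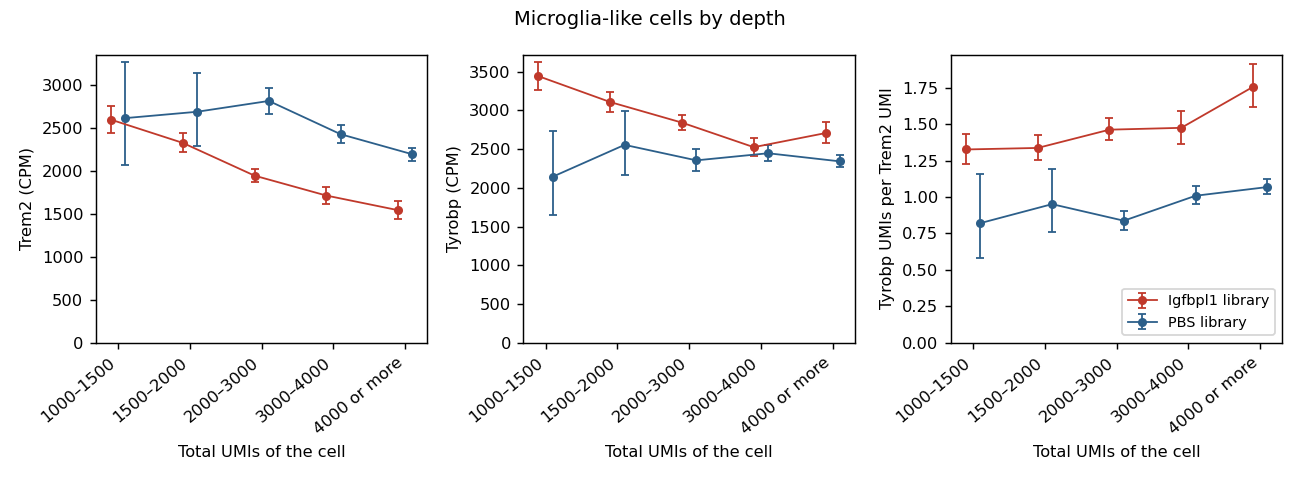
Trem2 (left, CPM), Tyrobp (middle, CPM) and Tyrobp UMIs per Trem2 UMI (right) in microglia-like cells split by total UMIs of the cell, with exact 95% intervals, red for the Igfbpl1 library and blue for the PBS library. The right panel shows the Igfbpl1 points, from 1.33 to 1.76, above all PBS points, from 0.821 to 1.07.

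Splits by heat shock UMIs, which rise when tissue is dissociated warm, gave a similar result. Their median was 21.4 per 1000 UMIs in microglia-like cells of the Igfbpl1 library and 11.01 in those of the PBS library. In 4 bins below 40 per 1000, the Trem2 ratio lay between 0.842 and 0.961 and the Tyrobp ratio between 1.14 and 1.40. The Trem2 ratio of 0.961, in the bin of 10 to 20 per 1000, was not beyond counting error (0.902 to 1.02, 388 Igfbpl1 and 241 PBS cells). The quotient of Tyrobp per Trem2 was 1.58 in the bin of lowest heat shock and 1.35 in the highest of these bins, with every interval above 1. The pools also held cells of both sexes. In cells with Xist and no Y-linked UMIs the quotient was 1.59 (1.46 to 1.74), and in cells with Y-linked UMIs and no Xist it was 1.42 (1.31 to 1.53).

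Trem2 and Tyrobp were compared across microglial states. States were cut from marker UMIs and are ranges, not types: interferon-responsive from 2 interferon gene UMIs per 1000, activated from 3 UMIs per 1000 of Ccl2, Ccl7, Ccl12 and Hmox1, and quiet otherwise. The Igfbpl1 library had 875 activated (55.1%), 602 quiet and 112 interferon-responsive cells, and the PBS library had 120 activated (15.5%), 636 quiet and 20 interferon-responsive cells. Near the activated boundary, between 2 and 4 per 1000, lay 307 cells of the Igfbpl1 library and 120 of the PBS library. Trem2 in activated cells was 0.931 times that in quiet cells of the Igfbpl1 library (0.887 to 0.977) and 1.06 times in the PBS library (0.996 to 1.13). Tyrobp was 0.973 times the quiet level in the Igfbpl1 library (0.935 to 1.01) and 0.978 times in the PBS library (0.916 to 1.04), which did not differ beyond counting error. Within Apoe-high cells of the Igfbpl1 library, defined below, activated over quiet was 0.844 for Tyrobp (0.783 to 0.909) and 0.872 for Trem2 (0.791 to 0.962). In those of the PBS library it was 0.986 for Tyrobp (0.853 to 1.14) and 1.06 for Trem2 (0.914 to 1.23). Below that Apoe level it was 1.03 for Tyrobp in the Igfbpl1 library (0.980 to 1.08) and 0.963 in the PBS library (0.893 to 1.04).

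Interferon-responsive cells had the lowest Trem2 of the 3 states in both libraries, though in the Igfbpl1 library the interval overlapped that of activated cells. Trem2 stood at 1830 CPM there, against 2093 CPM in quiet cells, in the Igfbpl1 library (ratio 0.874, 0.790 to 0.966), and at 1772 CPM, against 2375 CPM in quiet cells, in the PBS library (0.746, 0.625 to 0.883). Tyrobp was 0.948 times the quiet level in the Igfbpl1 library (0.873 to 1.03) and 0.797 times in the PBS library (0.673 to 0.938), the last from 20 cells. Microglia-like cells with Apoe at 10 per 1000 or more, a set that crosses these states, numbered 337 in the Igfbpl1 library and 75 in the PBS library. Their Tyrobp was 1.19 times that of the remaining cells in the Igfbpl1 library (1.14 to 1.24) and 1.05 times in the PBS library (0.979 to 1.13). Their Trem2 was not higher: 0.936 times in the Igfbpl1 library (0.887 to 0.988) and 0.970 times in the PBS library (0.900 to 1.04). In microglia-like cells Trem2 was thus not higher where Apoe was high, as it was among other myeloid cells of the Igfbpl1 library.

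Within each state the libraries differed as they did over all microglia-like cells, with 1 exception. In quiet cells the Igfbpl1 over PBS ratio was 0.881 for Trem2 (0.842 to 0.922) and 1.23 for Tyrobp (1.18 to 1.28). In activated cells it was 0.773 for Trem2 (0.724 to 0.826) and 1.22 for Tyrobp (1.14 to 1.30). In interferon-responsive cells Trem2 did not differ between the libraries beyond counting error (1.03, 0.852 to 1.26), and Tyrobp was at 1.46 (1.22 to 1.75). The quotient of Tyrobp per Trem2 was 1.39 in quiet, 1.58 in activated and 1.41 in interferon-responsive cells, each with its interval above 1.

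**Figure D4:**
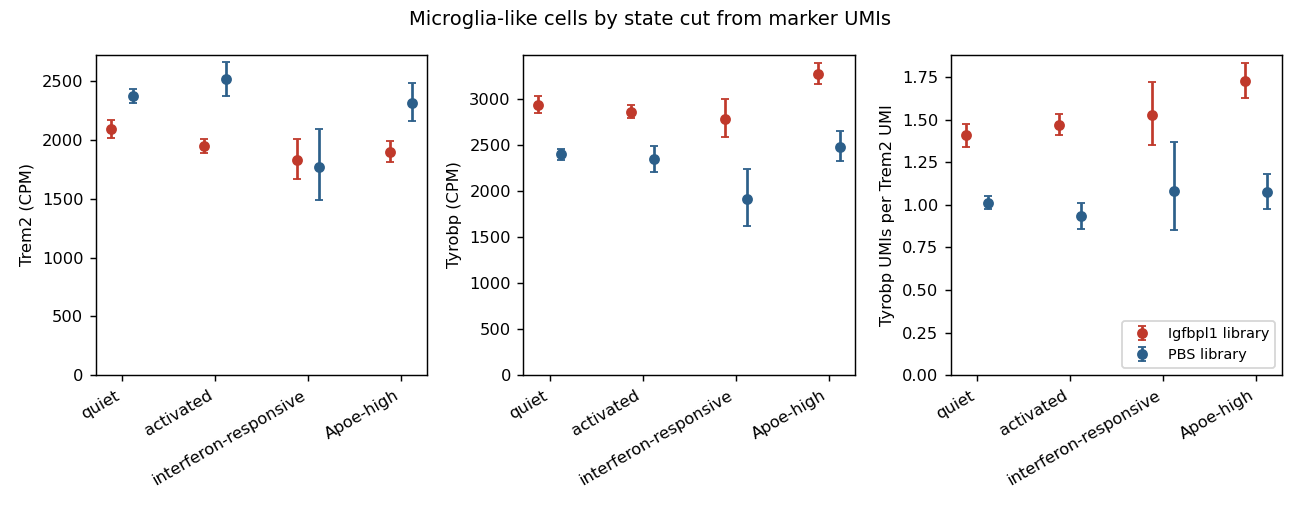
Trem2 (left, CPM), Tyrobp (middle, CPM) and Tyrobp UMIs per Trem2 UMI (right) by microglial state, with exact 95% intervals, red for the Igfbpl1 library and blue for the PBS library. Tyrobp per Trem2 is at 1.41 to 1.73 in the states of the Igfbpl1 library and at 0.931 to 1.08 in those of the PBS library, and the Apoe-high set overlaps the other states.

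Clustering found a small set of microglia-like cells high in Tyrobp. This cluster held 25 microglia-like cells of the Igfbpl1 library, with 3071 CPM of Trem2 and 6286 CPM of Tyrobp, and 9 of the PBS library, with 2819 CPM of Trem2 and 5743 CPM of Tyrobp. Its Tyrobp was 2.21 times that of the remaining microglia-like cells in the Igfbpl1 library (1.94 to 2.49) and 2.44 times in the PBS library (2.0004 to 2.94). Its Trem2 was 1.55 times that of the remaining cells in the Igfbpl1 library (1.29 to 1.85) and 1.18 times in the PBS library (0.889 to 1.55), the last not beyond counting error. Ribosomal protein genes took 26.2% of its UMIs in the Igfbpl1 library, against 11.9% in the remaining cells, and 27.8% in the PBS library, against 10.2%. Mitochondrial genes took 3.61% in the Igfbpl1 library and 3.38% in the PBS library, and small mitochondrial subunit genes such as Atp5l were among its leading genes in both. Both genes were among those clustered, so these values describe the set and do not test it.

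Most genes listed as Tyrobp-sharing receptors or their parts were highest in other classes than microglia-like cells, and Clec5a in these. NK cell-like cells of the Igfbpl1 library, with almost no Trem2, held the highest levels of Klrd1 (2068 CPM), Klra4 (943 CPM), Klra8 (855 CPM), Klrk1 (534 CPM) and Klrc2 (140 CPM), all NK receptor genes. Klrd1 and Klrk1 were not limited to NK cell-like cells: 53.2% and 41.8% of MHC class II Apoe-low cells of that library held them. The NK cell-like cells also had the highest level of Hcst, the DAP10 gene that ends beside Tyrobp, with 1049 CPM, against 75.6 CPM in microglia-like cells. T cell-like cells of the same library, with Tyrobp at 249 CPM, had 856 CPM of Hcst, so the levels of the adjoining adaptors were apart in that class. Siglech, a sialic acid receptor, was highest in plasmacytoid dendritic cell-like cells at 1526 CPM, the class of at least 20 cells in which Tyrobp was highest too. Fcer1g was highest in MHC class II Apoe-high cells (3699 CPM) and Cd247, the T cell receptor zeta chain, in γδ T cell-like cells (562 CPM). Sirpb1c (90.0 CPM), Cd300lb (30.01 CPM), Treml4 and Trem3 (2 and 1 UMIs) were highest in monocyte-like cells, and Sirpb1a (57.9 CPM), Sirpb1b (37.8 CPM) and Pilrb1 (11.6 CPM) in MHC class II Apoe-low cells, all of the Igfbpl1 library. Cd200r4 was highest in NK cell-like cells (39.4 CPM) and Pilrb2 in MHC class II Apoe-high cells of the PBS library (31.9 CPM), and Clec5a in microglia-like cells of the PBS library (79.8 CPM). The Cd300lb level came from 4 UMIs and the Pilrb2 level from 7. The intervals of Hcst, Fcer1g, Cd247, Clec5a, Cd200r4, Cd300lb, Treml4, Trem3 and the Sirpb1 and Pilrb genes overlapped those of another class. Their highest class was not resolved. Trem1 had 16 UMIs in MHC class II Apoe-low cells (12.3 CPM) and 5 in MHC class II Apoe-high cells, and its highest CPM, in B cell-like cells, came from 1 UMI.

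Tyrobp in T and B cell-like cells sat in a minority of cells. T cell-like cells had 249 CPM in the Igfbpl1 library (213 to 290, 168 UMIs in 71 of 243 cells) and 9.001 CPM in the PBS library, from 1 UMI in 31 cells. In the Igfbpl1 library, 148 of those 168 UMIs lay in the 159 T cell-like cells with a UMI of Nkg7, Klrd1 or Klrk1, cytotoxic and NK genes. The level there was 311 CPM, against 101 CPM in the other 84 cells, a split made after the class values were seen. B cell-like cells had 36 Tyrobp UMIs in the Igfbpl1 library (47 cells) and 9 in the PBS library (77 cells), or 484 CPM (Igfbpl1) and 49.1 CPM (PBS). In the Igfbpl1 library 5 of the cells held 31 of the 36 UMIs, and after thinning the class stood at 213 CPM. Trem2 in B cell-like cells was at 94.2 CPM in the Igfbpl1 library and 21.8 CPM in the PBS library, from 7 UMIs (Igfbpl1) and 4 UMIs (PBS).

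In microglia-like cells, genes of the pathway were set beside all measured genes, with the same 3.6% at least 1.5-fold higher and 4.89% at least 1.5-fold lower in the Igfbpl1 library. This threshold was applied to ratios with 10 CPM added, while the ratios printed have none added. Over all lists, 8 of 70 measured genes were higher and 9 lower by that rule, a gene that stands in 2 lists counting once. Of those lower, P2ry12, P2ry13 and Tmem119 are also markers that set the microglia-like class. With scaling by the median ratio of all genes, 9 were higher and 4 lower, where 5.84% of all measured genes were higher and 2.05% lower. All 8 higher calls held, and 5 of the 9 lower ones were lost. At a fold of 2, 1 list gene was higher and 0 lower, where 1.29% of all measured genes were higher and 0.21% lower. Of 18 genes listed as receptors that pair with Tyrobp, or as parts of them, only 2 were measured, and both were lower. Siglech stood at 522 CPM in the Igfbpl1 library and 935 CPM in the PBS library (ratio 0.558), and Clec5a, a C-type lectin receptor, at 46.6 CPM (Igfbpl1) and 79.8 CPM (PBS), a ratio of 0.584. With median ratio scaling Siglech was still called lower and Clec5a was not. Klra8 and Klrc2 were listed in the Igfbpl1 library alone, and Siglec15 in neither. None of the 5 other TREM genes reached the level set for a ratio. Of the adaptors, Fcer1g stood at 2882 CPM in the Igfbpl1 library and 2327 CPM in the PBS library (ratio 1.24), and Hcst at 75.6 CPM (Igfbpl1) and 72.1 CPM (PBS), a ratio of 1.05 (0.873 to 1.26). Neither passed 1.5-fold.

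Of 29 signalling genes below Tyrobp, 23 were measured, with 0 higher, 1 lower and a median log2 ratio of -0.21, against -0.11 over all genes. The lower one was Inpp5d, which encodes the phosphatase SHIP1 that counters TREM2 signalling, at 527 CPM in the Igfbpl1 library and 834 CPM in the PBS library (ratio 0.632, 0.595 to 0.672). That call was lost with median ratio scaling (log2 ratio -0.53). Rac2, a GTPase of the actin system, stood at 169 CPM (Igfbpl1) and 111 CPM (PBS), and its log2 ratio of 0.57 with 10 CPM added fell just under the threshold, which it passed with median ratio scaling (0.69). Lyn, a SRC family kinase, stood at 779 CPM (Igfbpl1) and 880 CPM (PBS), a ratio of 0.885. Of the genes for TREM2 ligands, Apoe alone was measured and was higher, at 10202 CPM in the Igfbpl1 library and 6651 CPM in the PBS library (1.53, 1.51 to 1.56). That level pools unlike cells: Apoe-high cells were 21.2% of microglia-like cells in the Igfbpl1 library and 9.66% in the PBS library. Within them Apoe was lower in the Igfbpl1 library, at 35696 CPM against 49765 CPM (PBS). In the remaining cells it was higher, at 1449 CPM (Igfbpl1) against 604 CPM (PBS). Apoa1 was listed in the Igfbpl1 library alone. The sheddases that cleave TREM2 did not pass 1.5-fold: Adam10 stood at 239 CPM (Igfbpl1) and 284 CPM (PBS), and Adam17 at 107 CPM (Igfbpl1) and 126 CPM (PBS). Of 7 transcription factors of macrophage genes, 0 passed in either direction, with a median log2 ratio of -0.29. Mef2c stood at 1348 CPM in the Igfbpl1 library and 1677 CPM in the PBS library, Mef2a at 1175 CPM (Igfbpl1) and 1549 CPM (PBS), and Irf8 at 303 CPM (Igfbpl1) and 383 CPM (PBS).

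Disease-associated microglia genes that are reported as dependent on Trem2 went in both directions. Of 11 measured of 16, 5 were higher and 2 lower, with a median log2 ratio of 0.27. Csf1, a growth factor of macrophages, stood at 143 CPM in the Igfbpl1 library and 59.5 CPM in the PBS library (2.41, 2.02 to 2.88), and Spp1, osteopontin, at 105 CPM (Igfbpl1) and 49.0 CPM (PBS), a ratio of 2.15 (1.76 to 2.62). Cd9, a tetraspanin, was lower, at 1944 CPM (Igfbpl1) and 2990 CPM (PBS), a ratio of 0.650 (0.630 to 0.671), a call lost with median ratio scaling. Ctsl, a cathepsin, stood at 1882 CPM (Igfbpl1) and 1559 CPM (PBS) without passing 1.5-fold. Clec7a, another gene of that list, was listed in neither library. Of 7 genes reported as independent of Trem2, 3 were higher and 0 lower, with a median log2 ratio of 0.39. Besides Apoe these were Fth1, the ferritin heavy chain, at 8028 CPM (Igfbpl1) and 4659 CPM (PBS), and Cstb, a cysteine protease inhibitor, at 203 CPM (Igfbpl1) and 122 CPM (PBS). Of 16 other microglial surface receptors, all measured, 0 were higher and 4 lower, with a median log2 ratio of -0.35. Among the lower ones, the purine receptor gene P2ry12 stood at 765 CPM (Igfbpl1) and 1465 CPM (PBS), and P2ry13 at 148 CPM (Igfbpl1) and 303 CPM (PBS). P2ry12, P2ry13, Tmem119 and Gpr34 of this list are also markers that set the microglia-like class, so their levels there are not independent of it. The fractalkine receptor gene Cx3cr1, at 2250 CPM (Igfbpl1) and 3077 CPM (PBS), and Ly86, at 2393 CPM (Igfbpl1) and 2620 CPM (PBS), did not pass 1.5-fold.

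**Figure D5:**
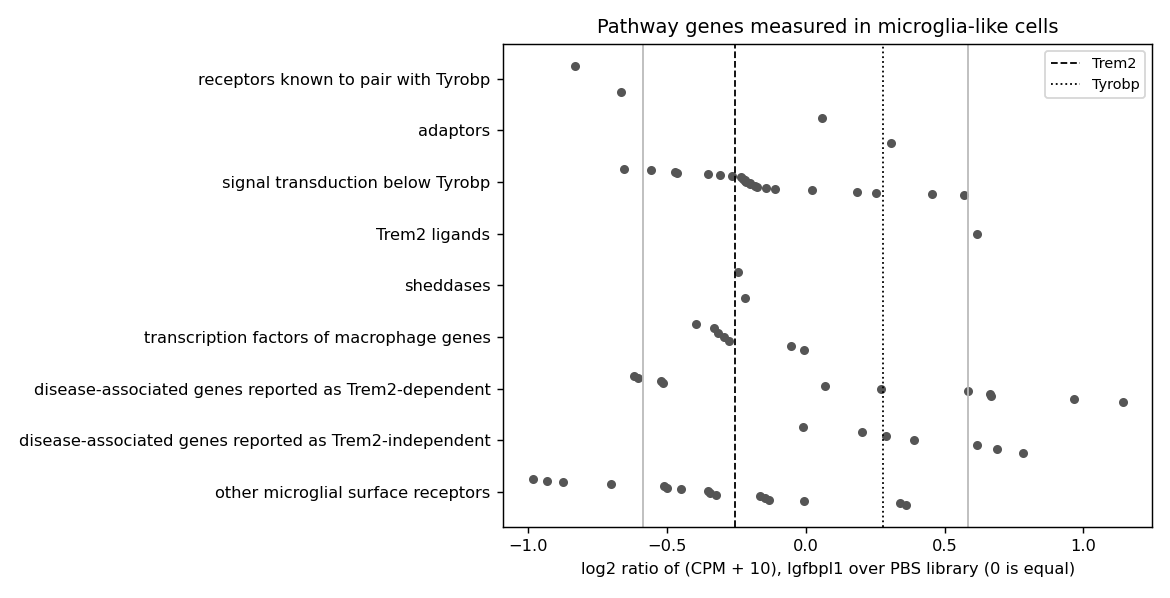
Log2 ratio of CPM with 10 added, Igfbpl1 over PBS library, of each measured gene of 9 pathway lists in microglia-like cells, 1 point a gene. Grey lines mark 1.5-fold, the dashed line Trem2 and the dotted line Tyrobp; other surface receptors have a median of -0.35 and genes reported as independent of Trem2 one of 0.39.

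The genes whose levels most resembled Trem2 over the classes were not those that most resembled Tyrobp. Over 20 points, each a class of at least 20 cells in 1 library, 3438 genes were ranked by Pearson's r of log2 CPM with 10 added. The points share libraries, depth and free RNA, so r is a description. For Trem2 the 5 closest were C1qa (0.97) and C1qc (0.96), complement genes, Csf1r (0.95), the CSF1 receptor, Hpgds (0.95), a prostaglandin synthase, and Entpd1 (0.95), an ectonucleotidase. For Tyrobp the closest included Fcer1g (0.96), Litaf (0.93), Ccl4 (0.91), a chemokine, and Skap2 (0.90), an adaptor of SRC kinases. Trem2 and Tyrobp had an r of 0.70 with each other, which placed Tyrobp at rank 215 for Trem2 and Trem2 at rank 189 for Tyrobp. By Spearman's rho, 1 of the 5 for Trem2 and 4 of the 5 for Tyrobp remained among the closest 5.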

How the data were processed

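The 2 count tables deposited, 1 per library, were used. The deposited values are raw counts of UMIs for each gene in each cell, as their whole values show. The authors' counting used Cell Ranger 3.1 and build mm10, per the submitters' processing notes, and the sources used here do not state how cells were filtered for deposit.

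The tables were handled in Python 3.11.15 (numpy 2.4.6, pandas 2.3.3), and no cell was removed. A cell took the class with the largest share of its markers detected, with at least 2 marker genes and 3 marker UMIs. Microglia-like, border macrophage-like, monocyte-like or unassigned cells with MHC class II at 1% of UMIs or more formed the MHC class II classes, split at 1% Apoe. A cell was mixed, and left out, where another lineage reached 0.6 of the best share, where an NK cell-like, T cell-like, γδ T cell-like or retinal cell held MHC class II at 1% or more, or where Apoe reached 1% in a class other than microglia, border macrophages, monocytes, dendritic cells or Müller glia. Classes were checked against Leiden clusters and Scrublet calls (scanpy 1.11.5, anndata 0.12.19, scikit-learn 1.9.0, igraph 0.11.9, resolution 0.8). Of their 10 leading genes, dendritic cell-like cells held 0 own markers and 4 of the MHC class II set, and migratory ones 2 and 4. All 8 dendritic cell markers were found in at least 10% of dendritic cell-like cells. CPM were UMIs summed over a class, with exact Poisson intervals, conditional intervals for ratios and Clopper-Pearson intervals for shares (scipy 1.17.1). A level of 0 has the limit that 3 counts allow. A ratio of a list gene needed a mean of 50 CPM over the libraries and 20 UMIs in all. The scripts were tested on simulated data.

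Both genes, the gene lists and the class rules were chosen with earlier results of these data known. Named from each list were the 2 members of highest CPM, the 2 of largest log2 ratio, and those listed in 1 library. Receptors and adaptors were named in their highest class, and likeness named the 5 closest genes, of which 1 is not reported here. Alternatives were thinning, other depth, marker, doublet, clustering, state, scaling and gene filters.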

Additional observations from a re-analysis of the deposited data

How the results depend on the processing

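In microglia-like cells the Igfbpl1 over PBS ratio of Trem2 (0.837) was below 1, and that of Tyrobp (1.21) above 1, under all alternatives run, except that Trem2 was at 1.09 in the small cluster 10 and at 1.03 (0.852 to 1.26) in interferon-responsive cells (112 cells in the Igfbpl1 library, 20 in the PBS library). The cause was not tested. The Trem2 ratio was 0.875 after thinning, 0.755 in cells of 2000 UMIs or more, 0.796 in Xist-only cells, 0.881 in quiet cells, 0.773 in activated cells, 0.868 without mitochondrial, ribosomal protein and heat shock genes, and 0.912 with median ratio scaling. The Tyrobp ratio was 1.27 after thinning, 1.15 in cells of 2000 UMIs or more, 1.27 in Xist-only and 1.17 in Y-only cells, 1.46 in interferon-responsive cells, 1.26 as a mean over cells, 1.26 without the same 3 gene groups, and 1.32 with median ratio scaling. Without Apoe-high cells, a setting chosen after seeing the data, it was 1.17. Tyrobp per Trem2 in the Igfbpl1 library was 1.52 in cells of 2000 UMIs or more, 1.58 in Xist-only, 1.40 in Y-only and 1.52 in interferon-responsive cells, and 1.36 without Apoe-high cells. In the PBS library it was 0.931 in activated and 1.08 in interferon-responsive cells. In the PBS library, activated over quiet was 0.985 for Trem2 after thinning and 1.09 for Tyrobp with activation set from 5 per 1000. Of the list genes, 1 was higher and 0 lower at a fold of 2, where 1.29% of all measured genes were higher and 0.21% lower. With median ratio scaling 4 were lower, where 2.05% of all were. The correlation of the 2 genes over classes was 0.57 with classes of 50 or more cells and 0.90 with classes of 20 or more cells in each of the 2 libraries, a setting chosen after seeing the data. The 5 genes closest to Trem2 kept 2 members and those closest to Tyrobp 5 with 1 CPM added, 3 and 3 with classes of 50 or more cells, and 1 and 1 with classes in each of the 2 libraries. Of class levels under thinning and doublet removal, 61 stayed within their counting interval and 19 did not. No paired analysis was possible because each group had 1 library. Leaving out a replicate was not possible for the same reason. Depth limits the classes with few UMIs: Trem2 in most lymphocyte and retinal classes rests on under 10 UMIs, and no order among them can be read.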

Other observations

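Some classes were too small to be described above but held the 2 genes. Border macrophage-like cells, 2 in the Igfbpl1 library and 4 in the PBS library, had 12 Trem2 and 16 Tyrobp UMIs in the Igfbpl1 library and 8 Trem2 and 43 Tyrobp UMIs in the PBS library. The 4 neutrophil-like cells of the Igfbpl1 library had 0 Trem2 UMIs and 35 Tyrobp UMIs, all 4 with at least 1. The 3 mast cell or basophil-like cells of the Igfbpl1 library had 2 Trem2 and 16 Tyrobp UMIs. The 3 NK cell-like cells of the PBS library had 0 Trem2 UMIs and 36 Tyrobp UMIs, and its 3 plasmacytoid dendritic cell-like cells 0 and 17. The Tyrobp-rich, Trem2-poor classes of the Igfbpl1 library were thus nearly without cells in the PBS library, and no comparison between the libraries was made in them.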
